A study of Schizosaccharomyces pombe with 32 samples.

Results

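The genes described here encode the mitochondrial respiratory chain and ATP synthase of the fission yeast Schizosaccharomyces pombe, together with factors that assemble them. They were chosen by name: every gene on the array whose annotated symbol begins with sdh, cox, qcr, cor, cyt, cyc, rip, nde, ndi or atp followed by a digit. Of 4819 genes measured, 49 met this rule. They comprised 30 subunits and electron carriers, 18 assembly and maturation factors and cor1, a cornichon family gene of protein transport that the name alone took in. The groups were 2 NADH dehydrogenases, 3 subunits and 2 assembly factors of complex II, and 7 subunits of complex III. Cytochrome c was grouped with 3 factors of heme attachment. Of these, cyt2 is named for the heme lyase of cytochrome c1, a subunit of complex III. Complex IV had 6 subunits and 8 assembly factors, and ATP synthase had 11 subunits and 5 assembly factors. A further 18 symbols of the RefSeq annotation match the rule but were not analysed here, 8 of them encoded by mitochondrial DNA.

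The arrays followed nitrogen starvation hour by hour in 2 conditions. The 16 arrays with P-factor carried RNA of the strain labelled CRL672, starved in medium without nitrogen at 30C with 0.5 ug/ml of synthetic P-factor, the peptide pheromone that M cells sense. The 16 arrays without P-factor carried RNA of the strain labelled L972, starved in the same way without pheromone. Because the strain changed with the pheromone, their parts in any difference cannot be told apart. In both conditions cells had grown in YES, a rich medium, and were sampled at 1, 2, 3, 4, 5, 6, 7 and 8 h, with 2 arrays for each hour. On each array, polyA RNA of the starved culture (Cy5) was hybridised against that of the same strain before starvation (Cy3), with no dye swap labelled. Every value below is therefore log2 of starved over growth, centred on the median of its array, and a gene at 0 changed like the median gene. The arrays of a condition form 2 series of 8, called replicate 1 and replicate 2. The series follow the numbers in the sample titles, taken as array numbers. Those of replicate 1 without P-factor lie above those of all other series. Nothing in the labels says how separate their cultures were, so p-values measure the spread between arrays.

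The respiratory chain passes electrons from NADH and succinate to oxygen. Fission yeast has no proton-pumping complex I, and single-subunit NADH dehydrogenases feed ubiquinone beside complex II, succinate dehydrogenase. Complex III hands the electrons to cytochrome c and complex IV to oxygen, while both pump protons that drive ATP synthase. In growth on plentiful glucose, this yeast ferments and makes less use of respiration.

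Of the 49 genes, 48 were measured on at least 24 of the 32 arrays and tested. The remaining gene, nde1, had values on 22 arrays. The second principal component of all genes (21% of the variance) set replicate 1 without P-factor apart, with arrays between 8.2 and 34.0. P-factor arrays lay between -18.3 and -5.3 on it, and replicate 2 without P-factor between -11.4 and 7.8. Calls between the conditions among the 48 tested genes are therefore also given without that series. All 4 measured marker genes of M cells stood above growth in both conditions, such as the P-factor receptor gene mam2 at 6.10 with P-factor and 3.73 without. The starvation protease gene isp6 averaged 6.11 with P-factor and 6.14 without. The 2 arrays of an hour differed by a median of 0.277 over the tested genes described here and 0.323 over all genes. In RNA of whole cultures, a change in every cell and a larger change in some cells cannot be told apart.

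Averaged over 1 to 8 h, subunit genes stood above growth in both conditions and assembly factors did not as a group. With P-factor, 25 of the 48 genes rose and 8 fell, where 33.9% of all genes tested rose and 32.8% fell. Without P-factor, 30 rose and 7 fell, against 33.7% and 35.3% of all genes. These shares of all genes stand beside every count by complex or list of averages over 1 to 8 h below. The median of the 48 genes was 0.36 with P-factor and 0.54 without, where the medians of all genes were 0.02 with P-factor and 0.00 without. Subunits and electron carriers carried the shift. Of the 29 tested, 21 rose and 1 fell with P-factor (median 0.62), and 26 rose and 0 fell without it (median 0.73). By limma, the 3 that were not called without P-factor had an unadjusted p above 0.05 as well. Of the 18 assembly factors, 4 rose and 6 fell in either condition, with medians of 0.01 with P-factor and -0.04 without. Without replicate 1 with P-factor, 16 of the 48 genes rose and 5 fell in that condition. Without replicate 2 with P-factor, 22 rose and 4 fell.

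**Figure D1:**
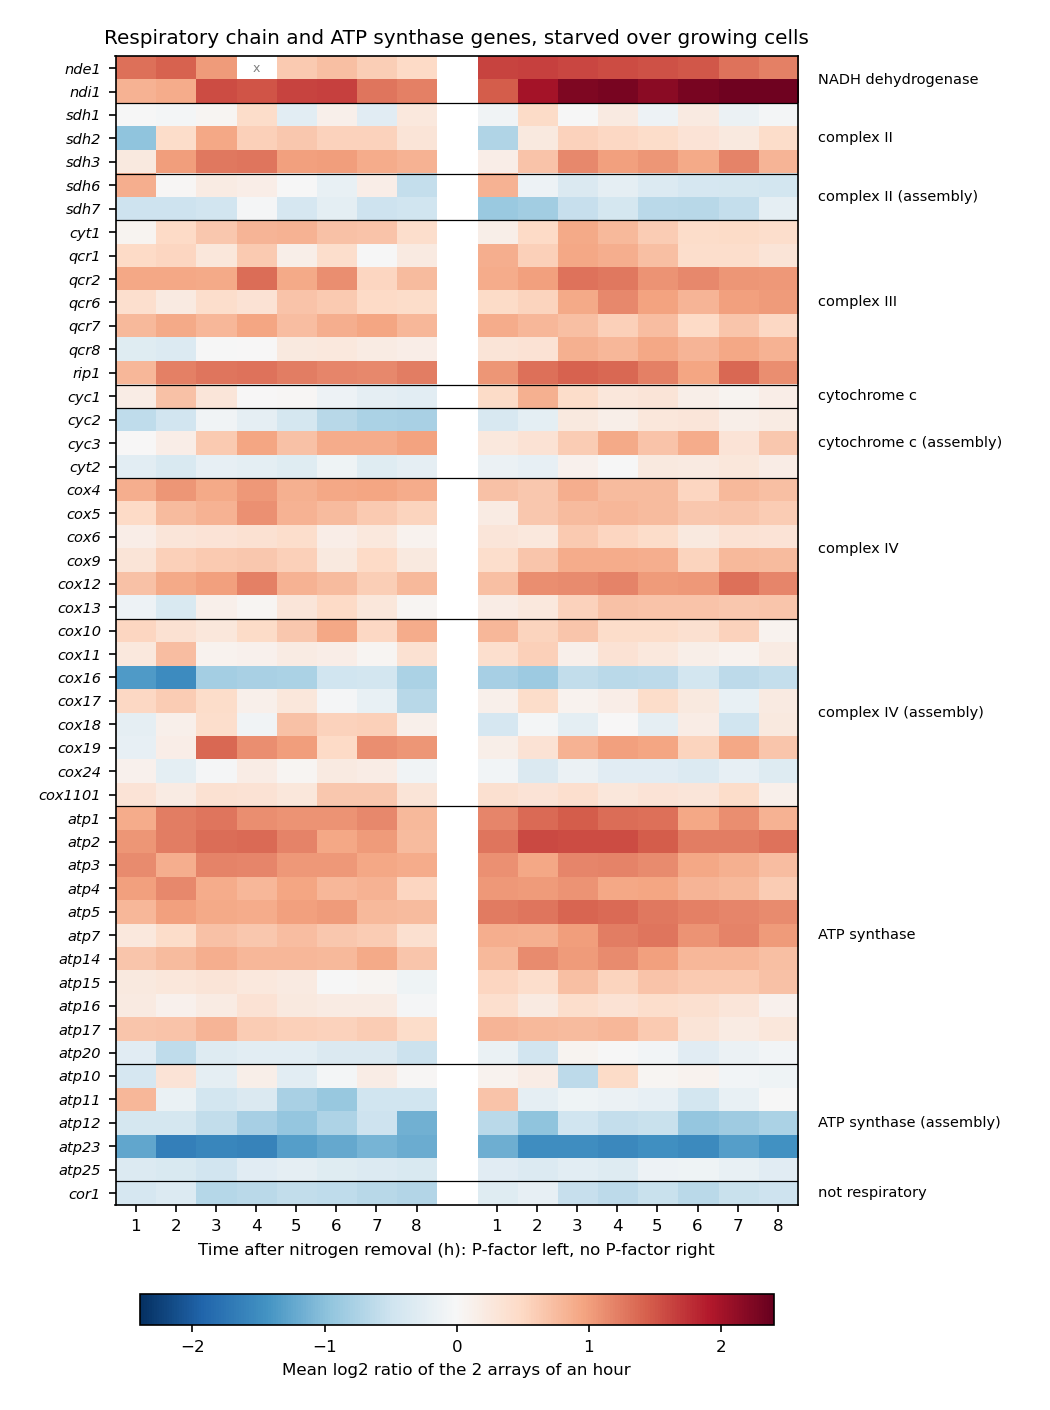
Mean log2 of starved over growth (colour scale) for each of the 49 genes, by complex, at 1 to 8 h with P-factor (left block) and without P-factor (right block). Most subunit rows are above 0 (red) at nearly all hours in both blocks, rows of ATP synthase assembly factors are mostly below 0 (blue), and the x marks nde1 at 4 h with P-factor, which had no value.

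Among the entry points for NADH, ndi1 (SPBC947.15C) had the highest average of all 48 genes in both conditions. Its budding yeast namesake oxidises NADH of the mitochondrial matrix. It averaged 1.32 ± 0.13 with P-factor (2.49-fold, adjusted p = 6.21e-09) and 2.14 ± 0.13 without (4.40-fold, adjusted p = 2.61e-12). Here and below, ± is the standard error of the linear model, which estimates the spread of a gene from all its arrays. Averages over 1 to 8 h rest on up to 16 arrays of a condition, and hourly means on up to 2. Those 16 arrays are 2 series of 8, and the model takes 1 correlation within series, 0.354, for all genes. For genes whose series differ more, the standard errors and p-values of averages against growth may be too small. The 16 arrays of ndi1 ran from 0.61 to 1.70 with P-factor (median 1.43) and from 1.41 to 2.70 without (median 2.15). At 1 h the 2 arrays gave 0.61 and 1.05 with P-factor, against 1.41 and 1.51 without. At 4 h they gave 1.65 and 1.39 with P-factor, against 2.62 and 1.93 without. At 8 h they gave 1.42 and 0.99 with P-factor, against 2.70 and 1.98 without. Both arrays with P-factor lay below both arrays without it at all 8 hours, although the ranges over all hours overlapped.

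The other NADH dehydrogenase gene, nde1 (SPAC3A11.07), was above growth on every array that measured it. Its budding yeast namesake takes NADH from outside the inner membrane. It lay between 0.37 and 1.42 with P-factor (9 arrays, median 0.72) and between 1.21 and 1.95 without (13 arrays, median 1.59). Only the first hours with P-factor overlapped the values without it, with 1.33 at 1 h and 1.42 at 2 h on 1 array each. At 8 h the P-factor arrays gave 0.60 and 0.37, against 1.21 on 1 array without P-factor. A fit that admits genes measured on at least 16 arrays gave a fall with P-factor between early and late hours (6 to 8 h minus 1 to 3 h) of -0.65 ± 0.16 (adjusted p = 0.00297). Without P-factor the change between those hours was -0.25 ± 0.15 (adjusted p = 0.19), and the difference of the 2 changes, -0.40 ± 0.21, was not called (adjusted p = 0.19). The gap between the conditions was -0.27 ± 0.32 at 1 h and -0.84 ± 0.31 at 8 h in that fit (adjusted p = 0.975 and 0.127). The partner gene nde2 was not analysed here.

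In complex II, 1 of the 3 subunit genes was below growth at 1 h. The iron-sulfur subunit gene sdh2 (SPAC140.01), whose protein passes electrons on from the flavin of the enzyme, was below growth at 1 h in both conditions. Its 1 h arrays gave -0.56 and -1.39 with P-factor, against -0.56 and -0.90 without. The 1 h means were -0.97 ± 0.23 with P-factor (adjusted p = 0.00117) and -0.73 ± 0.23 without (adjusted p = 0.0112). By 3 h its arrays read 0.91 and 0.94 with P-factor, against 0.25 and 0.85 without, and 1 array after the first hour, at -0.06, was below 0. Over all hours sdh2 averaged 0.38 ± 0.15 with P-factor (adjusted p = 0.0335) and 0.25 ± 0.15 without (adjusted p = 0.159). Its call with P-factor was lost without replicate 1 (0.16, adjusted p = 0.609) or replicate 2 (0.60, adjusted p = 0.0524) of that condition. The membrane anchor gene sdh3 was the highest of the complex, at 0.94 ± 0.18 with P-factor and 0.87 ± 0.18 without (adjusted p = 7.33e-05 and 0.00017). Without P-factor replicate 1, its P-factor average was 0.75 and missed the threshold (adjusted p = 0.061). It too was lowest at 1 h, with 0.65 and -0.17 with P-factor against 0.34 and -0.04 without. The flavoprotein gene sdh1, the catalytic subunit, averaged 0.03 ± 0.15 with P-factor and 0.06 ± 0.15 without, and was called in neither condition.

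The 2 assembly factors of complex II, which handle the iron-sulfur subunit, had other courses. sdh6 was above growth at 1 h alone among the hours called, at 1.27 and 0.47 with P-factor against 0.66 and 1.00 without. Its 1 h means of 0.87 ± 0.24 with P-factor and 0.83 ± 0.24 without passed the test (adjusted p = 0.00336 and 0.00468). At 2 h it was 0.03 with P-factor and -0.11 without. Between early and late hours it fell by 0.56 with P-factor and by 0.54 without (adjusted p = 0.00389 and 0.00693), and without replicate 2 of the condition without P-factor that fall there was -0.26 and not called (adjusted p = 0.458). sdh7 fell on average in both conditions, at -0.39 ± 0.15 with P-factor and -0.60 ± 0.15 without.

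Complex III rose as a whole without P-factor (7 of 7 genes, median 0.73) and in 6 of 7 genes with it (median 0.58). The Rieske iron-sulfur gene rip1 (SPBC16H5.06) was the highest, at 1.17 ± 0.12 with P-factor (2.25-fold) and 1.23 ± 0.12 without (2.34-fold). All 32 of its array values were above 0, from 0.67 to 1.51 with P-factor (median 1.22) and from 0.74 to 1.497 without (median 1.28), so the conditions overlapped almost fully. The cytochrome c1 gene cyt1 ran from -0.37 to 0.89 with P-factor (median 0.68) and from 0.06 to 1.23 without (median 0.47), with means of 0.58 ± 0.13 with P-factor and 0.53 ± 0.13 without. Its hourly mean was lowest at 1 h in both conditions, where the arrays gave 0.50 and -0.37 with P-factor against 0.22 and 0.06 without. The core subunit genes qcr1 and qcr2 averaged 0.33 ± 0.14 and 0.93 ± 0.17 with P-factor, and 0.64 ± 0.14 and 1.09 ± 0.17 without. The small subunit genes qcr6 and qcr7 averaged 0.45 ± 0.10 and 0.84 ± 0.10 with P-factor, and 0.86 ± 0.10 and 0.67 ± 0.10 without.

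The exception in complex III was qcr8 (SPAC1782.07), a small subunit near the ubiquinone sites. It averaged 0.03 ± 0.12 with P-factor (adjusted p = 0.848) and 0.73 ± 0.12 without (adjusted p = 2.04e-05). Its P-factor arrays ran from -0.56 to 0.52 (median 0.02), and its arrays without P-factor from -0.15 to 1.23 (median 0.64). At 2 h the arrays gave -0.10 and -0.56 with P-factor, against 0.64 and 0.05 without, and at 5 h they gave 0.40 and 0.08 against 1.23 and 0.62. Both P-factor arrays lay below both others at 7 of 8 hours. Within the condition without P-factor, replicate 1 averaged 1.03 and replicate 2 averaged 0.43, so the 2 series also differed. Late hours exceeded early ones in both conditions, by 0.42 ± 0.12 with P-factor and 0.35 ± 0.12 without (adjusted p = 0.00684 and 0.0256). These calls were lost without P-factor replicate 1 (0.35, adjusted p = 0.128) and without replicate 1 or 2 of the other condition (0.45 and 0.26, adjusted p = 0.112 and 0.352).

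Cytochrome c itself, cyc1 (SPCC191.07), rose briefly. It was highest at 2 h, with 0.97 and 0.45 with P-factor against 0.88 and 0.84 without. Both conditions passed the test at that hour, at 0.71 ± 0.19 with P-factor and 0.86 ± 0.19 without. At 8 h it read -0.16 and -0.36 with P-factor, against -0.20 and 0.50 without. Between early and late hours it fell by 0.59 with P-factor and by 0.47 without (adjusted p = 0.000324 and 0.00339). Its average was 0.08 ± 0.12 with P-factor (adjusted p = 0.60) and 0.34 ± 0.12 without (adjusted p = 0.0188). Without P-factor, leaving out replicate 2 took the average to 0.25 (adjusted p = 0.0864), and leaving out replicate 1 took the late fall to -0.28 (adjusted p = 0.323). The heme lyase gene cyc3 rose on average, at 0.65 ± 0.16 with P-factor and 0.58 ± 0.16 without. Its late values exceeded its early ones with P-factor (0.65 ± 0.16, adjusted p = 0.00162), and by 0.22 ± 0.16 without (adjusted p = 0.289). cyt2, named for the heme lyase of cytochrome c1, averaged -0.24 ± 0.12 with P-factor and 0.08 ± 0.12 without, and was called in neither condition.

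The maturation gene cyc2 (SPAC17H9.12C), whose budding yeast namesake acts in heme attachment to cytochrome c, had conditions that lay further apart at late hours. From 1 to 3 h its hourly means went up in both. They were -0.60, -0.47 and -0.09 with P-factor, and -0.39, -0.23 and 0.24 without. All 16 P-factor arrays were below 0, from -1.21 to -0.07 (median -0.42), against -0.54 to 0.53 without (median 0.03). It fell on average with P-factor (-0.50 ± 0.13, adjusted p = 0.00152) and averaged 0.08 ± 0.13 without (adjusted p = 0.586). At 3 h its arrays read -0.07 and -0.12 with P-factor, against 0.45 and 0.02 without. At 8 h they read -0.63 and -0.92 with P-factor, against 0.47 and -0.07 without. Late minus early was -0.35 ± 0.13 with P-factor (adjusted p = 0.0257) and 0.34 ± 0.13 without (adjusted p = 0.0361). Neither late change kept its call when a series of its own condition was left out: it was -0.41 and -0.29 with P-factor without replicate 1 and 2 (adjusted p = 0.0565 and 0.165), and 0.27 and 0.41 without P-factor (adjusted p = 0.425 and 0.189). The average with P-factor was -0.32 without its replicate 2 (adjusted p = 0.154).

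In complex IV, the 6 nuclear subunit genes rose in 4 cases with P-factor (median 0.60) and in all 6 without (median 0.68). cox4 (SPAC1296.02) was highest with P-factor, at 0.94 ± 0.11, and stood at 0.72 ± 0.11 without. Its arrays ran from 0.56 to 1.26 with P-factor (median 0.90) and from 0.39 to 0.99 without (median 0.73), all above 0. cox12 was highest without P-factor, at 1.09 ± 0.16, and averaged 0.85 ± 0.16 with it. cox5 averaged 0.74 ± 0.13 with P-factor and 0.63 ± 0.13 without, and cox9 averaged 0.46 ± 0.11 with P-factor and 0.73 ± 0.11 without. cox6 ranged from -0.23 to 0.56 with P-factor (median 0.28) and from -0.02 to 0.79 without (median 0.37). Its mean of 0.26 ± 0.12 with P-factor missed the threshold (adjusted p = 0.0633), and its mean of 0.38 ± 0.12 without passed (adjusted p = 0.00723). cox13 averaged 0.09 ± 0.14 with P-factor (adjusted p = 0.561) and 0.55 ± 0.14 without (adjusted p = 0.00121), where replicate 1 averaged 0.86 and replicate 2 averaged 0.23.

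The assembly factors of complex IV moved in both directions. With P-factor 3 of 8 rose and 1 fell, where 33.9% of all genes rose and 32.8% fell. Without it 3 rose and 2 fell, where 33.7% and 35.3% of all genes did. cox19, a copper delivery factor of the intermembrane space, rose to 0.76 ± 0.18 with P-factor and 0.67 ± 0.18 without. It came up between 2 and 3 h, with 0.00 and 0.30 at 2 h and 1.42 and 1.33 at 3 h with P-factor, against 0.34 and 0.34 at 2 h and 0.80 and 0.87 at 3 h without. cox16 fell throughout, at -0.86 ± 0.13 with P-factor and -0.64 ± 0.13 without, and all 32 arrays were below 0. Its lowest values were at 2 h, at -1.16 and -1.84 with P-factor against -0.55 and -1.18 without. The copper chaperone gene cox17 was called in neither average (0.13 ± 0.21 with P-factor and 0.17 ± 0.21 without) but fell by 0.80 between early and late hours with P-factor (adjusted p = 0.00248). Without P-factor that change was -0.18 ± 0.22 (adjusted p = 0.54).

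cox10, heme O synthase (SPBC365.02C), rose in both conditions, at 0.57 ± 0.11 with P-factor and 0.49 ± 0.11 without. Its arrays at 1 h gave 0.48 and 0.56 with P-factor, against 0.50 and 1.08 without, and overlapped. At 8 h they gave 1.05 and 0.71 with P-factor, against 0.07 and 0.10 without, and did not. Late minus early was 0.38 ± 0.11 with P-factor (adjusted p = 0.00698) and -0.32 ± 0.11 without (adjusted p = 0.0262). Each late change lost its call without either series of its own condition, at 0.34 and 0.42 with P-factor (adjusted p = 0.114 and 0.0507) and -0.43 and -0.21 without (adjusted p = 0.118 and 0.44). The average with P-factor was 0.44 without its replicate 1 (adjusted p = 0.0618). cox18, a membrane insertion factor, averaged 0.27 ± 0.17 with P-factor and -0.12 ± 0.17 without, called in neither. cox24 fell without P-factor (-0.24 ± 0.10, adjusted p = 0.0367) and averaged 0.05 ± 0.10 with it; its budding yeast namesake belongs to the mitochondrial ribosome. cox1101 rose to 0.39 ± 0.13 with P-factor and 0.32 ± 0.13 without. cox11 averaged 0.23 ± 0.13 with P-factor and 0.26 ± 0.12 without and was called in neither condition. RefSeq lists the name cox11 under 2 near-identical genes, so the split of signal between these probes is uncertain.

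**Figure D2:**
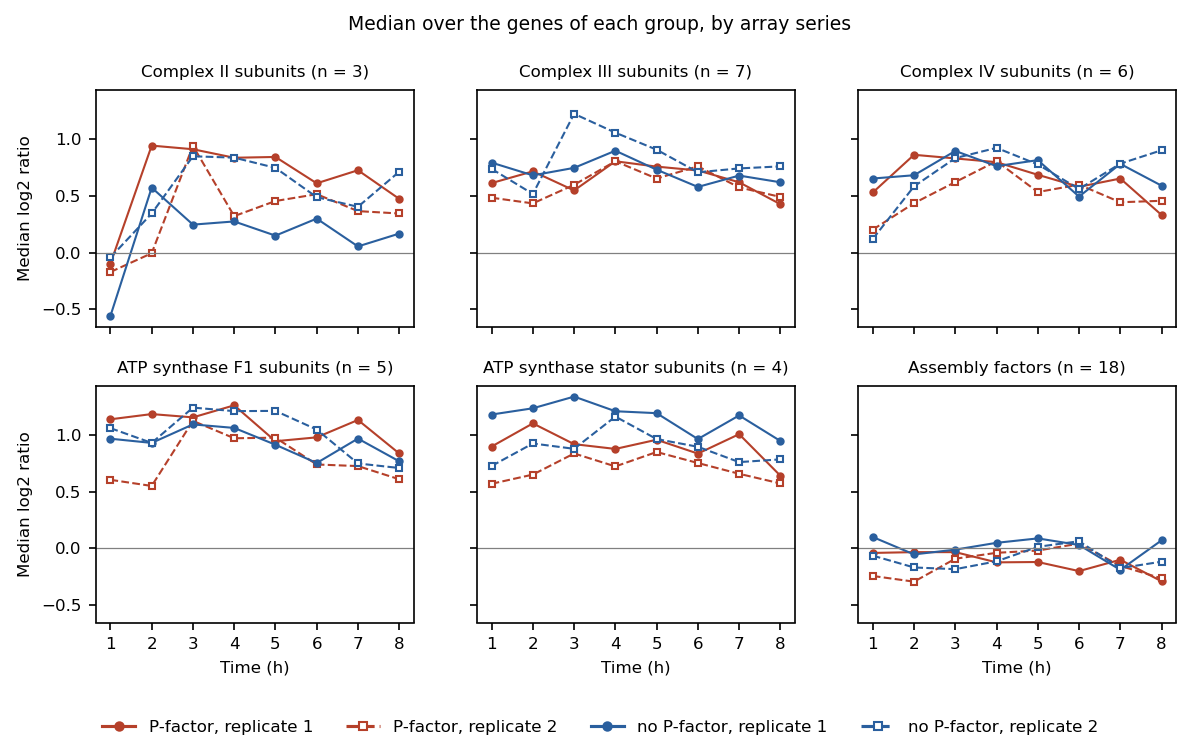
Median log2 ratio (y axis) over the genes of a group at 1 to 8 h (x axis) for the 2 array series of each condition. The subunit medians of complexes III and IV and of ATP synthase stay above 0 in all 4 series at every hour, complex II starts below 0 at 1 h, and the 18 assembly factors have medians on both sides of 0.

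Most ATP synthase subunit genes rose. With P-factor 8 of 11 subunit genes rose and 1 fell (median 0.78), and without P-factor 10 rose (median 0.92). The catalytic head F1 had a median of 1.03 with P-factor and 1.01 without over its 5 genes. The gene of its catalytic beta subunit, atp2 (SPAC222.12C), averaged 1.11 ± 0.11 with P-factor and 1.41 ± 0.11 without (2.16-fold and 2.65-fold). Its arrays lay between 0.63 and 1.55 with P-factor (median 1.13) and between 1.04 and 1.85 without (median 1.38). The alpha subunit gene atp1 (SPAC14C4.14) averaged 1.07 ± 0.12 with P-factor and 1.17 ± 0.12 without. Its arrays ran from 0.60 to 1.42 with P-factor (median 1.14) and from 0.71 to 1.77 without (median 1.13). Both genes were above 0 on every array that measured them, and the conditions overlapped. The gamma subunit gene atp3, for the rotating stalk, averaged 1.03 ± 0.10 with P-factor and 1.01 ± 0.10 without. The small F1 genes were lower: atp15 averaged 0.15 ± 0.15 with P-factor and 0.61 ± 0.15 without, and atp16 averaged 0.18 ± 0.13 with P-factor and 0.32 ± 0.13 without. Both were called without P-factor (adjusted p = 0.000835 and 0.0308) and not with it.

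The 4 stator genes, whose proteins hold the head against the turning rotor, rose in both conditions, with medians of 0.82 with P-factor and 0.99 without. atp4 averaged 0.86 ± 0.11 with P-factor and 0.90 ± 0.11 without, and atp14 averaged 0.78 ± 0.11 with P-factor and 0.92 ± 0.11 without. atp5, the OSCP subunit, averaged 0.89 ± 0.10 with P-factor and 1.26 ± 0.10 without, and atp7 averaged 0.55 ± 0.13 with P-factor and 1.07 ± 0.13 without. Among the membrane subunits, atp17 rose to 0.62 ± 0.11 with P-factor and 0.58 ± 0.12 without. atp20, named for subunit g of the dimer contact, went the other way and fell with P-factor (-0.37 ± 0.14, adjusted p = 0.0204), with -0.14 ± 0.14 without (adjusted p = 0.369).

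Assembly factors of ATP synthase did not follow the subunits: 0 of 5 rose and 3 fell in each condition, and by limma no rise had an unadjusted p below 0.05. Of all genes, 33.9% rose and 32.8% fell with P-factor, and 33.7% rose and 35.3% fell without. atp23 (SPCC320.12), a peptidase and chaperone in budding yeast, was the lowest of all 48 genes, at -1.36 ± 0.16 with P-factor and -1.43 ± 0.16 without (0.388 and 0.370 of the level in growth). Its arrays ran from -1.84 to -0.68 with P-factor (median -1.46) and from -1.87 to -0.95 without (median -1.39). atp12, a chaperone that helps build F1, fell to -0.69 ± 0.15 with P-factor and -0.72 ± 0.15 without, and atp25 to -0.33 ± 0.10 with P-factor and -0.23 ± 0.10 without. The other F1 chaperone gene, atp11, was called above growth at 1 h alone, at 1.13 and 0.45 with P-factor against 0.99 and 0.39 without. Its 1 h means were 0.79 ± 0.24 with P-factor and 0.69 ± 0.24 without (adjusted p = 0.00793 and 0.0187), and with P-factor it was below growth at 5 h and 6 h, at -0.78 and -0.90 (adjusted p = 0.00916 and 0.00319). Late minus early, atp11 fell by 0.68 with P-factor (adjusted p = 0.00103) and changed by -0.33 ± 0.16 without (adjusted p = 0.0989). atp10 averaged -0.03 ± 0.21 with P-factor and 0.01 ± 0.21 without. The gene outside respiration, cor1, fell to -0.58 ± 0.14 with P-factor and -0.48 ± 0.14 without.

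Across the 8 hours the shift of subunit and carrier genes was present from the first sample, and was smaller there in replicate 2 of each condition. At 1 h their medians in replicates 1 and 2 were 0.610 and 0.338 with P-factor, and 0.821 and 0.412 without. Over all 48 genes the medians were 0.487 and 0.045 with P-factor, and 0.544 and 0.180 without. The medians of all genes were -0.013 and -0.020 with P-factor, and -0.020 and 0.013 without. At 1 h, 18 of the 48 genes were higher than in growth with P-factor and 22 without, where 26.4% and 26.4% of all genes were. At 3 h the counts were 22 with P-factor (24.4% of all genes) and 28 without (27.3%). At 8 h they were 19 with P-factor (29.9%) and 22 without (27.1%). The median of the 29 subunit and carrier genes with P-factor was 0.48 at 1 h, 0.82 at 3 h and 0.44 at 8 h. Without P-factor it was 0.70, 0.90 and 0.72 at those hours. By hour of the highest mean, 4 h held most genes with P-factor (12 of 48) and 3 h held most without (13 of 48).

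Late hours (6 to 8 h) were set against early ones (1 to 3 h) to ask whether the shift kept growing. With P-factor 6 of 48 genes were higher late and 7 lower, where 33.7% and 19.8% of all genes were. Without P-factor 5 were higher and 8 lower, where 24% and 18.3% of all genes were. The medians were 0.01 with P-factor and -0.07 without, beside 0.11 with P-factor and 0.05 without over all genes. These splits depended on how arrays were scaled. With the values as deposited they were 2 higher and 17 lower with P-factor, and 1 higher and 11 lower without; the median of all genes with P-factor then moved to -0.08. With P-factor, scaling arrays to equal spread gave 8 higher and 5 lower, and quantile normalization gave 4 and 10. The genes lower late included atp4 in both conditions (-0.28 ± 0.11 with P-factor and -0.31 ± 0.11 without), atp2 with P-factor (-0.31 ± 0.11), and atp1, atp17, qcr1 and qcr7 without it (-0.37 ± 0.12, -0.49 ± 0.12, -0.41 ± 0.14 and -0.25 ± 0.10). The call of atp2 was lost with any 1 of the 4 series left out (adjusted p between 0.0621 and 0.147), and that of atp1 without either series of its condition (adjusted p = 0.122 and 0.24). Among the genes higher late with P-factor, cox16 came back towards growth (0.66 ± 0.13), and cox13 changed by 0.39 ± 0.14. Whether the calls of atp4, atp17, qcr1, qcr7 and cox13 hold with a series left out is not given here. By limma, those of atp4 (adjusted p = 0.0393 with P-factor and 0.0312 without) and qcr7 (adjusted p = 0.0442) lay near the threshold. Leaving out a single series gave between 3 and 5 higher and between 2 and 6 lower genes with P-factor, the lowest of each without its own replicate 1. Without P-factor, leaving out replicate 1 of that condition gave 2 higher and 1 lower, and leaving out replicate 2 gave 1 and 2.

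The conditions were then compared directly. Averaged over 1 to 8 h, 0 of 48 genes were higher with P-factor and 2 were lower, ndi1 and qcr8, where 2.12% of all genes were higher and 1.21% lower. By limma, 8 of the 48 genes had an unadjusted p below 0.05. Of the 48 estimates, 30 were below 0 and 18 above, with a median of -0.08 beside 0.00 over all genes. All 46 genes that were not called had a 95% interval within a log2 difference of 1 in either direction, and for 17 genes it lay within 0.5. The intervals, here and below, rest on 2 series a condition and on 1 correlation within series, 0.354, taken for all genes. For genes whose 2 series differ more, such as qcr8, they may be too narrow. Replicate 1 without P-factor, the series that stands apart, weighed on this count. Without it 1 gene was lower, without replicate 2 of that condition 8 were lower and 1 higher, and without either P-factor series 0 were lower.

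**Figure D3:**
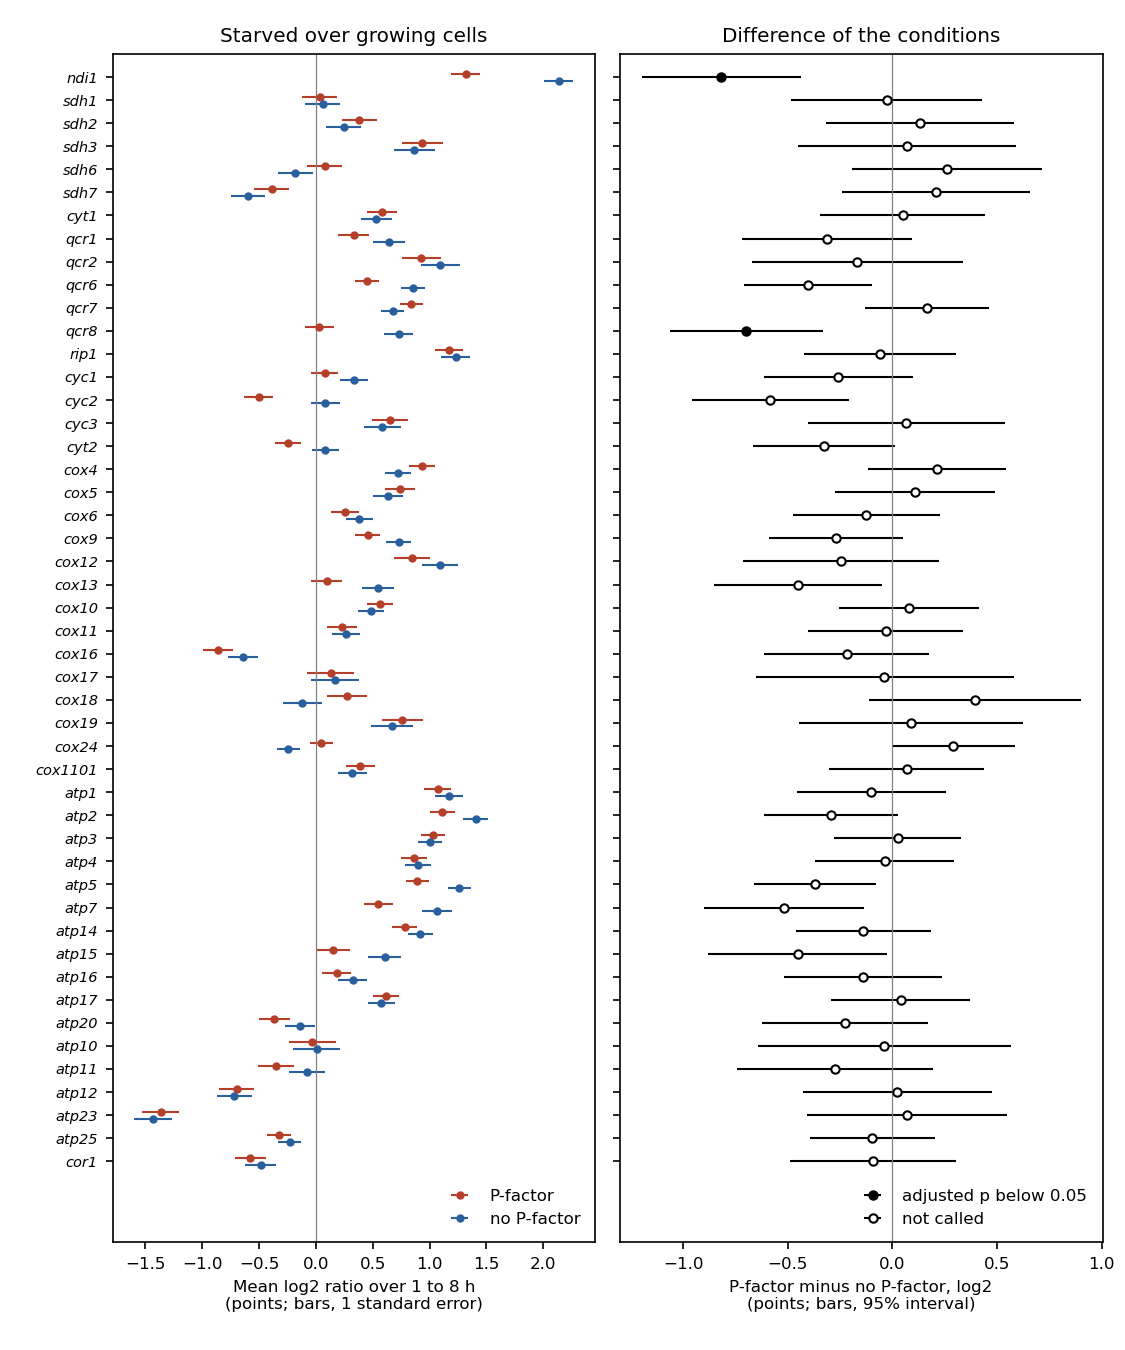
Left, mean log2 of starved over growth over 1 to 8 h with 1 standard error for the 48 tested genes, with P-factor (red) and without P-factor (blue). Right, P-factor minus no P-factor with its 95% interval, filled where the adjusted p was below 0.05; ndi1 and qcr8 are the 2 filled points, both below 0.

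ndi1 was lower with P-factor by a log2 difference of -0.82 (95% interval -1.20 to -0.44, adjusted p = 0.0137). The estimate was -0.69 without replicate 1 without P-factor (adjusted p = 0.0164). It was -0.89 without P-factor replicate 1 and -0.75 without P-factor replicate 2, where it lost its call (adjusted p = 0.244 and 0.301). qcr8 was lower by -0.70 (95% interval -1.06 to -0.33, adjusted p = 0.0296). Its estimate was -0.40 without replicate 1 without P-factor (adjusted p = 0.147), and its call was also lost without either P-factor series (adjusted p = 0.24 and 0.437). Whether the offset of that series is a matter of the cells or of the arrays was not tested.

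Several subunit genes leaned the same way without passing the test. The stator gene atp7 differed by -0.52 (95% interval -0.90 to -0.14, adjusted p = 0.143), and by -0.23 without replicate 1 without P-factor. cox13 differed by -0.45 (-0.85 to -0.05), atp15 by -0.45 (-0.88 to -0.03), qcr6 by -0.40 (-0.71 to -0.10) and atp5 by -0.37 (-0.66 to -0.08), with adjusted p between 0.161 and 0.273. Replicates 1 and 2 without P-factor averaged 0.860 and 0.234 for cox13, and 0.787 and 0.425 for atp15. They were closer for qcr6 (0.858 and 0.854) and atp5 (1.337 and 1.185). Differences of cox13, atp15, qcr6 and atp5 with a series left out are not given here. At the other end, cox18 had the highest estimate, 0.39 (-0.11 to 0.90, adjusted p = 0.462). Its arrays ran from -0.38 to 1.08 with P-factor (median 0.29) and from -0.71 to 0.53 without (median -0.08), and overlapped. For the pairs with the closest averages, atp3 differed by 0.03 (-0.28 to 0.33), atp4 by -0.04 (-0.37 to 0.30) and rip1 by -0.06 (-0.42 to 0.30).

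Hour by hour, the calls came at 6 h and later, and each of them was lost in at least 2 of the 4 fits that left out 1 series. At 1 h 0 of 48 genes differed (0.166% of all genes, 4 genes with an unadjusted p below 0.05 by limma). At 2 h the count was 0 (0.0624%, 4 genes unadjusted), at 3 h 0 (0.0208%, 5 unadjusted), at 4 h 0 (0.104%, 7 unadjusted) and at 5 h 0 (0.998%, 4 unadjusted). One gene differed at 6 h (4.36% of all genes), 2 at 7 h (7.19%) and 3 at 8 h (8.9%). The gene at 6 h was cyc2, at -0.96 ± 0.28 (adjusted p = 0.0483). At 7 h cyc2 differed by -0.91 ± 0.28 and ndi1 by -1.06 ± 0.28 (adjusted p = 0.0468 and 0.0215). At 8 h cyc2 differed by -0.98 ± 0.28, ndi1 by -1.14 ± 0.28 and cox10 by 0.80 ± 0.24 (adjusted p = 0.0261, 0.0106 and 0.0423). Without replicate 1 without P-factor, the series that stands apart, all 6 of these calls were lost. cyc2 then differed by -0.84 at 6 h, -0.59 at 7 h and -0.70 at 8 h (adjusted p = 0.328, 0.402 and 0.312). ndi1 differed by -0.99 at 7 h and -0.78 at 8 h (adjusted p = 0.0914 and 0.193), and cox10 by 0.79 at 8 h (adjusted p = 0.18). The calls of cyc2 at 6 h and cox10 at 8 h were lost with any 1 of the 4 series left out (adjusted p between 0.0836 and 0.377). Without P-factor replicate 1, cyc2 at 7 h kept its call and the other 5 did not. Without P-factor replicate 2, none of the 6 passed by limma, and cyc2 at 7 h was -0.46 (adjusted p = 0.546). Without replicate 2 without P-factor, ndi1 at both hours and cyc2 at 7 and 8 h stayed called.

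**Figure D4:**
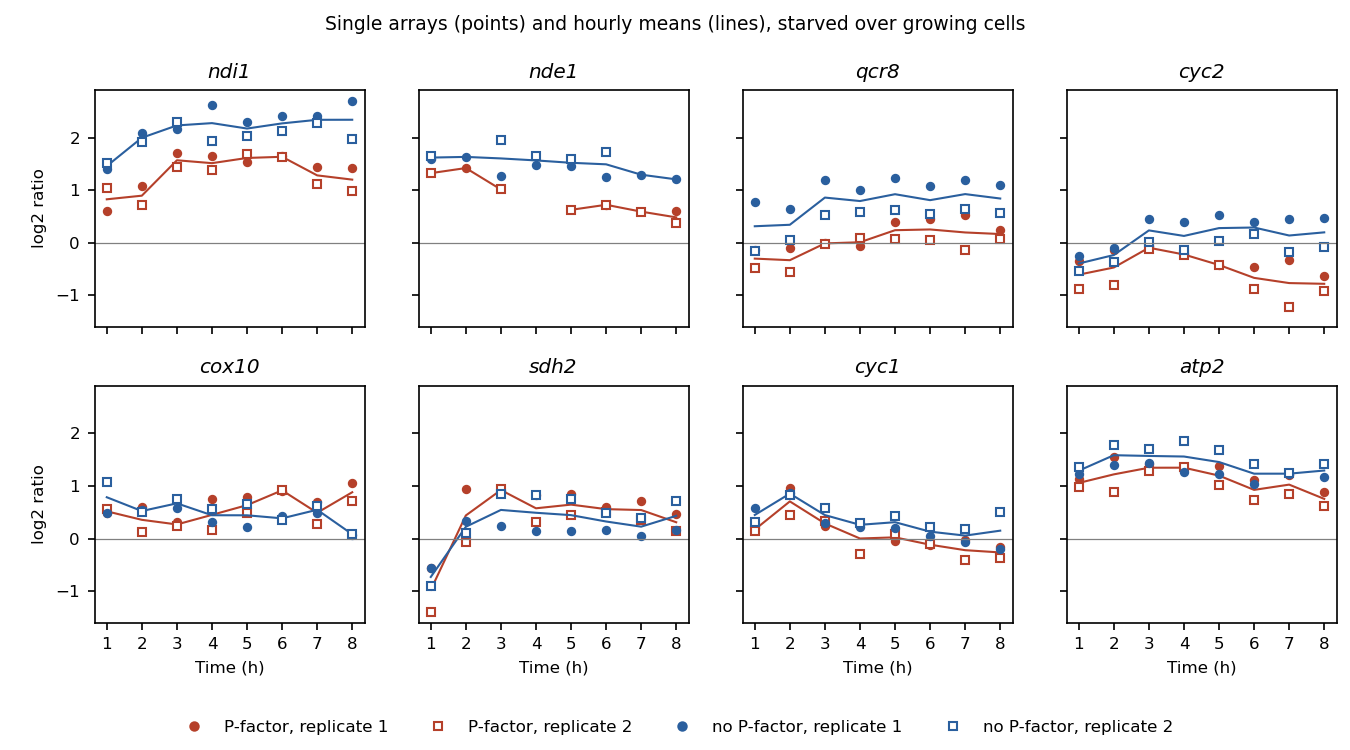
Log2 of starved over growth at 1 to 8 h for 8 genes, with P-factor (red) and without P-factor (blue); points are single arrays and lines hourly means. ndi1 is lower with P-factor at every hour, cyc2 and cox10 separate at late hours in opposite directions, and sdh2 starts below 0 in both conditions.

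The change between early and late hours differed between the conditions in 2 of 48 genes. One was higher and 1 lower with P-factor, where 15.6% of all genes were higher and 10.2% lower. By limma, 4 of the 48 had an unadjusted p below 0.05. cox10 was the higher one, at 0.70 (95% interval 0.37 to 1.03, adjusted p = 0.00274). It stayed called without replicate 1 without P-factor (0.81, adjusted p = 0.036) and lost its call without replicate 2 (0.60, adjusted p = 0.0997). cyc2 was the lower one, at -0.69 (-1.06 to -0.31, adjusted p = 0.00717). It lost its call without either series of the condition without P-factor, at -0.62 and -0.76 (adjusted p = 0.144 and 0.0758). Both genes act in making heme proteins of the chain, cox10 in heme A synthesis for complex IV and cyc2, in budding yeast, for cytochrome c.

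Neighbouring pathways were described through lists of named genes. Their counts, here and in the next paragraphs, stand beside 33.9% of all genes higher and 32.8% lower with P-factor. Without P-factor the shares were 33.7% and 35.3%. In the citrate cycle, which feeds the chain with NADH and succinate, 10 of 11 genes rose with P-factor (median 1.22), and 9 rose and 1 fell without it (median 1.15). The malate dehydrogenase gene mdh1 stood at 2.16 ± 0.14 with P-factor and 2.24 ± 0.14 without, and lsc2, for succinyl-CoA ligase, at 1.59 ± 0.14 with P-factor and 1.60 ± 0.14 without. idh1, for isocitrate dehydrogenase, was the 1 listed gene of these pathways whose average differed, at 0.73 ± 0.18 with P-factor and -0.31 ± 0.18 without, a difference of 1.04 ± 0.26 (adjusted p = 0.0264). Whether this call holds with a series left out is not given here. The ADP/ATP carrier gene anc1 averaged 1.66 ± 0.13 with P-factor and 1.81 ± 0.13 without, and the outer membrane porin gene por1 averaged 1.67 ± 0.13 with P-factor and 2.09 ± 0.13 without. The proline dehydrogenase gene put1 averaged 2.29 ± 0.18 with P-factor and 2.01 ± 0.18 without. In all, 4 of 8 genes of that list of electron donors and carriers rose and 4 fell with P-factor, and 4 rose and 2 fell without.

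Among assembly factors and small regulators outside the name rule, 7 of 15 rose and 6 fell with P-factor, and 4 rose and 6 fell without. inh1, for the inhibitor protein of ATP synthase, was the highest, at 1.88 ± 0.14 with P-factor and 2.20 ± 0.14 without, beside 1.32 and 2.14 for ndi1. The complex III chaperone gene cbp3 rose to 0.96 ± 0.15 with P-factor and 0.80 ± 0.15 without. coa4 and rcf1, for complex IV, fell to -1.25 ± 0.13 and -0.62 ± 0.14 with P-factor, and to -1.19 ± 0.13 and -1.06 ± 0.15 without. In the list of ubiquinone synthesis genes, 3 of 12 rose and 1 fell with P-factor, and 2 rose and 3 fell without (medians -0.02 with P-factor and 0.00 without). coq9 was the highest at 0.75 ± 0.11 with P-factor and 0.71 ± 0.11 without, and coq10 the lowest at -0.53 ± 0.16 with P-factor and -1.06 ± 0.16 without.

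Import and mitochondrial ribosome genes were counted beside the 32.8% with P-factor and 35.3% without of all genes that fell. Of 20 genes named tim or tom, for protein import, 19 fell in each condition (medians -0.98 with P-factor and -0.94 without). The lowest was tim22, at -1.57 ± 0.18 with P-factor and -1.99 ± 0.18 without. The single one that rose was tim18, at 0.90 ± 0.17 with P-factor and 0.81 ± 0.17 without, which RefSeq also lists as sdh4, the second membrane anchor of complex II. Those values lie beside 0.94 and 0.87 for the other anchor gene, sdh3. Of 46 mitochondrial ribosome genes, 23 fell and 5 rose with P-factor (median -0.34), and 28 fell and 6 rose without (median -0.48). mrps17 averaged -1.09 ± 0.14 with P-factor and -0.995 ± 0.142 without. In glycolysis 5 of 12 genes rose and 5 fell with P-factor, and 5 rose and 3 fell without. pgi1 rose to 0.96 ± 0.13 with P-factor and 0.87 ± 0.13 without, and gpm1 fell to -0.91 ± 0.20 with P-factor and -0.74 ± 0.20 without.

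Of 8 regulators of respiration and carbon source genes, 6 rose with P-factor and 5 without. rst2, a transcription factor for growth on poor carbon sources, averaged 1.41 ± 0.13 with P-factor and 1.43 ± 0.13 without. The glucose repressor gene scr1 averaged 1.01 ± 0.22 with P-factor and 0.76 ± 0.22 without. The CCAAT-binding factor genes php2 and php5 averaged 0.58 ± 0.14 and 0.94 ± 0.13 with P-factor, and 0.79 ± 0.14 and 0.63 ± 0.13 without. php4, whose protein represses iron-using genes when iron is short, averaged -0.20 ± 0.19 with P-factor and 0.24 ± 0.19 without and was called in neither condition.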

How the data were processed

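The deposited values are log2 ratios, 1 for each probe on each of 32 two-colour arrays, made by the authors; background and normalization steps: not given in the sources used here. Direction (Cy5 starved over Cy3 growing) comes from the labels. The log base is not stated: the range makes base 10 impossible, base 2 was taken by convention, and a natural log would change every fold. Precision is limited by the number of arrays. Missing values were 0.456%.

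Of 5188 probes, 4868 had 1 gene in the platform annotation, 22 several and 298 none listed; 4793 of the 4819 genes and 48 of the 49 described here matched RefSeq. Probes of 1 gene were averaged, and each array was centred on its median (-0.154 to 0.091 before). Genes with values on at least 24 arrays were tested (4811). A model with 16 group means was fitted with limma 3.58.1 (R 4.3.3), array series as random block (correlation 0.354), with 16 residual and 6.32 prior degrees of freedom. Only its test of the difference of late changes was tried on simulated data, drawn with 1 correlation for all genes. The tests of averages were not tried in that way. Tests were two-sided, with Benjamini-Hochberg adjustment over all tested genes and a threshold of 0.05. Replicate numbers follow sample order and pair nothing.

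Members, gene lists and tests were chosen with earlier results of these data known. Any member could be named; named throughout were nde1, sdh2, rip1, cyt1, cyc1, cox4, cox6, atp1 and atp2, extremes of each complex, members called against their complex, and up to 4 called genes a list, with php4. The complex labels of cor1, cox24, cox1101 and atp25 were added, and abc1, dao1 and tim11 left out of lists, after the symbols were seen; tim18 is named as an exception. Alternatives covered the subunits alone, centring, scaling, quantile normalization, the block, missing values, late hours and left-out replicates.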

Additional observations from a re-analysis of the deposited data

Results flagged for a closer look

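The genes ndi1, qcr8, cyc2 and cox10 passed a test of the difference between the conditions itself, with all 32 arrays. The NADH dehydrogenase gene ndi1 was lower with P-factor, by a log2 difference of -0.818 over 1 to 8 h, -1.056 at 7 h and -1.137 at 8 h. The complex III subunit gene qcr8 was lower by -0.698 over 1 to 8 h. The cytochrome c maturation gene cyc2 was lower by -0.958 at 6 h, -0.905 at 7 h and -0.978 at 8 h, and its change between early and late hours differed by -0.688. The heme O synthase gene cox10 was higher by 0.798 at 8 h, and its change between early and late hours differed by 0.702. These calls rest on few series. Without replicate 1 without P-factor, the 6 hourly calls and the late change of cyc2 were lost, and qcr8 was at -0.40 (adjusted p = 0.147). Without P-factor replicate 1 or 2, the average of ndi1 lost its call (adjusted p = 0.244 and 0.301), as did that of qcr8 (0.24 and 0.437). The call of cyc2 at 6 h was lost with any 1 series left out, and the late change of cox10 without replicate 2 without P-factor (adjusted p = 0.0997). Strain and pheromone changed together, so what sets these differences cannot be told apart.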

How the results depend on the processing

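Single genes followed under the alternatives were ndi1, sdh2, sdh3, sdh6, rip1, cyt1, qcr8, cyc1 and cyc2. Also followed were cox4, cox6, cox10, cox16, atp1, atp2, atp7 and atp23. The other tested genes entered only the counts and medians. No called value of a followed gene changed sign, but medians of the 48 genes did. Late minus early with P-factor, the median was 0.008, against -0.182 as deposited and -0.084 after quantile normalization, and the difference of late changes was 0.033, against -0.093 and -0.057. Averaged counts against growth kept within 1.5 times under every change of centring, scaling, block and missing-value filter; without single series they ran from 16 to 26 higher and from 4 to 10 lower with P-factor. With subunits and carriers alone, 1 gene was lower with P-factor and 0 without. Late minus early, left-out series gave 3 to 5 higher and 2 to 6 lower genes with P-factor. Without P-factor they gave 1 to 4 higher and 1 to 7 lower. For the same late changes, values as deposited gave 2 higher and 17 lower with P-factor and 1 higher without. Arrays without the block gave 3 higher and 4 lower late with P-factor and 2 and 3 without. Without P-factor, 7 and 8 h against 1 and 2 h gave 8 higher and 3 lower. Late minus early in that condition, equal spread, and genes on all 32 arrays, gave 5 lower each. Between conditions, arrays without the block gave 2 higher and 13 lower averages, 0 lower late changes, and 0, 1 and 1 calls at 6, 7 and 8 h. Left-out series gave 0 to 1 higher and 0 to 8 lower averages, 0 to 1 higher and 0 to 3 lower late changes, 0 calls at 6 h and 0 to 3 at both 7 and 8 h. The causes were not tested, except that left-out series leave fewer arrays. Of the results of the followed genes under alternatives, 1074 kept their side of the threshold, 78 lost and 22 gained a call. No paired analysis was possible because the replicate numbers follow sample order and the labels carry none.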
